A study of Mus musculus with 60 samples.

Results

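The proteasome is the protease that degrades proteins tagged with ubiquitin, and the genes that encode its subunits, activators and assembly factors were compared between Mstn-null and wild-type mice at 3 ages. Members were taken by name alone: genes whose single symbol on the array platform starts with Psma, Psmb, Psmc, Psmd, Psme, Psmf or Psmg followed by a number, which gave 49 of the 18193 genes named on the arrays. Psmc3ip, a partner in meiotic recombination, and Psme3ip1, a protein that binds the activator Psme3, match by name only and stay out of all counts that follow, which leaves 47 proteasome genes. They were covered by 100 probe sets, with 1 for 21 genes and several, up to 8, for 26 genes. Each gene was represented by its brightest probe set over the 10 pools of a time point, which was the same probe set at all 3 time points for 47 of 47 genes. No filter on low values was applied, so all 47 were tested each time.

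The 47 genes comprise 14 constitutive subunits of the 20S core (7 of the alpha ring and 7 of the beta ring), 9 of the 19S base, 8 of the 19S lid, 3 inducible immunoproteasome subunits, 2 tissue-restricted core subunits, the inducible activator Psme1, 2 other activators, 7 assembly chaperones and the inhibitor Psmf1. Psme2 is named here only by a probe set shared with another gene and was not analysed here.

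Mstn-null mice, which lack myostatin, a secreted inhibitor of muscle growth, and wild-type mice, both C57BL/6J by their labels, were each represented by 5 RNA pools per age, and a pool held RNA of 3 animals, so that a group stands for 15 animals. Whole embryo RNA was used at 13.5 d.p.c. (days post coitum), hindquarter RNA at 17.5 d.p.c. and RNA of the pectoralis muscle at d35 (35 days after birth). The sex of the animals is not given in the sources used here. Values are log2 intensities as the authors normalized them, and all differences are Mstn-null minus wild-type on that scale.

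In the core particle, alpha rings gate the entry to a barrel of beta rings, in which Psmb5, Psmb6 and Psmb7 carry the protease sites. The 19S particle caps the barrel: its base holds the ATPases (Psmc genes) that unfold substrates, and its lid holds the deubiquitinase Psmd14. Interferon can exchange the catalytic subunits for Psmb8, Psmb9 and Psmb10, which forms the immunoproteasome, and in skeletal muscle the ubiquitin and proteasome system is known as a main route of myofibrillar protein breakdown.

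Over the 30 pools, each on a chip A and a chip B array (60 arrays), the medians of chip A arrays lay at 8.05 to 8.09 at 13.5 d.p.c., 7.78 to 7.86 at 17.5 d.p.c. and 6.88 to 6.94 at d35, and those of chip B arrays at 7.04 to 7.1, 6.89 to 6.91 and 6.16 to 6.2 at the same ages. Of 45037 probe sets, 0.54% were called at 13.5 d.p.c., 0% at 17.5 d.p.c. and 4.58% at d35, where called means a Storey q under 0.05 in limma. In the pectoralis muscle all 8 skeletal muscle markers ranked at or above the percentile 78.1 of their chip. No probe set carries the symbol Mstn in the annotation used, so the targeted gene was not analysed here.

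Proteasome genes were called in number at d35 only, when nearly all those called were higher in Mstn-null muscle. Over the 47 genes the median difference was -0.01 at 13.5 d.p.c., 0.04 at 17.5 d.p.c. and 0.13 at d35, beside 0.01, -0.00 and 0.01 over the brightest probe sets of all genes. At 13.5 d.p.c. 25 of 47 were negative (42.7% of all genes were) and 1 was called, lower in Mstn-null embryos (0.513% of all probe sets were called lower). At 17.5 d.p.c. 11 of 47 were negative (51.4% of all genes) and 0 were called (0% of all probe sets). At d35 7 of 47 were negative (44.9% of all genes), 11 were called higher in Mstn-null muscle (2.08% of all probe sets) and 1, Psme1, was called lower (2.5%).

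**Figure D1:**
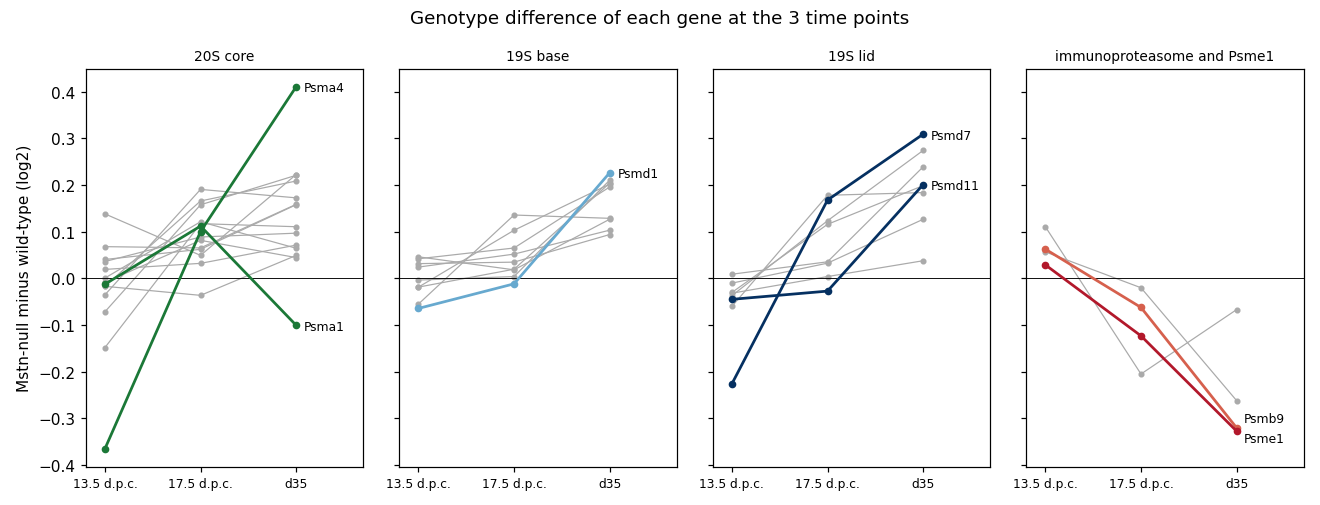
Difference of each gene, Mstn-null minus wild-type in log2 intensity (y axis), at the 3 time points (x axis), in panels by class of subunit; each line is 1 gene. Psma4 lies at -0.37 at 13.5 d.p.c. and at 0.41 at d35, and Psme1 at -0.33 at d35.

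In the embryos of 13.5 d.p.c., Psmd7, a lid subunit that pairs with the deubiquitinase Psmd14, was the 1 proteasome gene called. Its level was 9.11, 9.18, 9.13, 9.02 and 9.19 in the Mstn-null pools, against 9.40, 9.39, 9.41, 9.37 and 9.20 in the wild-type pools. Every Mstn-null pool lay below every wild-type pool, and wild-type pool 5 was close to the Mstn-null values. The difference was -0.23 ± 0.0484 (SE, n = 5, limma q = 0.0472), or 0.855-fold, where 0.513% of all probe sets were called lower. The 2 dimmer probe sets of Psmd7 differed by -0.12 and 0.05 and were not called. The call was lost when any pool but wild-type pool 5 was left out, with a difference between -0.24 and -0.20 and q from 0.0587 to 0.152, and in those fits the share called among all probe sets was 0.00222% to 0.404%, against 0.54% with all pools. As every sample holds all cell types of its tissue, fewer cells of a type and less RNA per cell cannot be told apart here or at the other ages.

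Psma4, an alpha subunit with 1 probe set, stood apart at this age without being called. Its level was 11.62, 11.61, 11.62, 11.58 and 11.60 in the Mstn-null pools, against 12.28, 11.95, 12.18, 11.76 and 11.69 in the wild-type pools. The genotypes did not overlap, and wild-type pools 1 and 3 were the highest. The difference was -0.37 ± 0.0902 (SE, n = 5, limma q = 0.0801), with an SD of 0.0176 over Mstn-null pools and 0.257 over wild-type pools. Psmd7 and Psma4 were the 2 of 47 genes without overlap, both lower in Mstn-null embryos, beside 1.66% of all probe sets.

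In the lid 7 of 8 genes had a negative difference at 13.5 d.p.c. (median -0.03), and Psmd7 alone passed the test. In the 20S core 8 of 14 were negative (median -0.01) and in the base 5 of 9 (median -0.00), with 0 called in either. All 3 immunoproteasome genes were positive and 0 were called, at 0.06 for Psmb8, 0.06 for Psmb9 and 0.11 for Psmb10. Psmb10, the inducible counterpart of Psmb7, was at 8.49, 8.53, 8.47, 8.32 and 8.58 in the Mstn-null pools, against 8.36, 8.38, 8.36, 8.36 and 8.37 in the wild-type pools. Mstn-null pool 4 was the lowest of the 10 pools and the other 4 Mstn-null pools were the highest (q = 0.28).

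For the remaining catalytic subunits the genotypes overlapped at 13.5 d.p.c. Psmb5, the chymotrypsin-like subunit, was at 11.27, 11.17, 11.32, 11.28 and 11.26 in the Mstn-null pools, against 11.22, 11.22, 11.17, 11.20 and 11.16 in the wild-type pools. Mstn-null pool 2 lay among the wild-type pools and the other 4 Mstn-null pools above them, a difference of 0.07 ± 0.0381 (SE). Its counterpart Psmb8 was at 7.34, 7.19, 7.07, 7.17 and 7.09 in the Mstn-null pools, against 7.05, 7.17, 7.14, 7.07 and 7.15 in the wild-type pools. Mstn-null pool 1 was the highest, and Mstn-null pools 3 and 5 lay among the wild-type pools (0.06 ± 0.05). Psmb6, the caspase-like subunit, was at 11.28, 11.05, 11.05, 11.27 and 11.30 in the Mstn-null pools, against 11.19, 10.90, 10.89, 11.15 and 11.12 in the wild-type pools. Mstn-null pools 1, 4 and 5 were above all wild-type pools and Mstn-null pools 2 and 3 among them (0.14 ± 0.0704). Its counterpart Psmb9 was at 7.60, 7.49, 7.47, 7.61 and 7.41 in the Mstn-null pools, against 7.46, 7.57, 7.46, 7.46 and 7.31 in the wild-type pools. Mstn-null pools 1 and 4 were the highest and wild-type pool 5 the lowest (0.06 ± 0.0524). Psmb7, the trypsin-like subunit, was at 12.38, 12.45, 12.47, 12.49 and 12.40 in the Mstn-null pools, against 12.46, 12.40, 12.47, 12.47 and 12.47 in the wild-type pools. Mstn-null pools 1 and 5 and wild-type pool 2 were the lowest (-0.02 ± 0.0375). Psme1, an interferon-inducible activator, was at 10.12, 10.13, 10.16, 9.99 and 10.08 in the Mstn-null pools, against 10.03, 10.08, 10.00, 10.13 and 10.09 in the wild-type pools. Mstn-null pool 3 was the highest and Mstn-null pool 4 the lowest (0.03 ± 0.0427). None of these differences was called, with q from 0.365 to 0.681.

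The 3′ minus 5′ signal of actin controls, which reflects RNA integrity, was 0.29 to 0.318 in Mstn-null and 0.16 to 0.234 in wild-type pools on chip B of the youngest embryos, without overlap. On chip A, which carries Psmd7 and Psma4, it was 0.201 to 0.346 in Mstn-null and 0.0677 to 0.214 in wild-type pools. The genotypes overlapped there, and for the Gapdh control on both chips. The part of these signals in the differences of Psmd7 and Psma4 was not tested. Genes of antigen presentation and the interferon response were positive in 11 of 12 cases (median 0.12, 0 called), with the smallest p for H2-D1, a class I histocompatibility gene, at 0.28 (limma q = 0.097). Markers of macrophages (8 of 8), T cells (6 of 6), B cells (5 of 5) and hepatocytes (6 of 6) were positive as well, with 0 called. So were those of erythroid cells (5 of 5), white adipocytes (4 of 5) and skeletal muscle (5 of 8), with 0 called. Markers of endothelial cells (5 of 5) and neurons (4 of 5) were negative, with 0 called, where 42.7% of all genes were negative. The mean deviation of macrophage markers was -0.01 to 0.08 in Mstn-null and -0.10 to 0.02 in wild-type pools, that of T cell markers -0.04 to 0.09 in Mstn-null and -0.04 to -0.00 in wild-type pools, and that of B cell markers -0.05 to 0.09 in Mstn-null and -0.10 to 0.03 in wild-type pools. The part of these cells in the immunoproteasome differences was not tested. Psmb8, Psmb9 and Psmb10 ranked at the percentiles 31.2, 37.8 and 57.6 of their chip at this age.

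In hindquarters at 17.5 d.p.c. 0 of 47 genes were called and 0 had an unadjusted p under 0.05 in limma, where 0% and 2.43% of all probe sets did. Differences leaned to the positive side in the core (13 of 14, median 0.09), the lid (7 of 8, median 0.08) and the base (8 of 9, median 0.03), and all 3 immunoproteasome genes were negative. Every q was 1.

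The smallest p values on the positive side belonged to Psma5, an alpha subunit, Psmb7 and Psmd14. Psma5 was at 11.20, 11.09, 10.84, 10.74 and 10.80 in the Mstn-null pools, against 10.70, 10.61, 10.80, 10.79 and 10.83 in the wild-type pools, a difference of 0.19 ± 0.092 (SE). Mstn-null pools 1 and 2 were well above the wild-type pools, pool 3 just above them, and pools 4 and 5 among them. Psmb7 was at 12.06, 12.08, 11.87, 11.75 and 11.74 in the Mstn-null pools, against 11.88, 11.61, 11.83, 11.74 and 11.60 in the wild-type pools, a difference of 0.17 ± 0.0878. Psmd14 was at 11.24, 11.30, 11.01, 10.84 and 11.06 in the Mstn-null pools, against 11.00, 10.64, 10.97, 10.89 and 11.06 in the wild-type pools, a difference of 0.18 ± 0.102. In both, Mstn-null pools 1 and 2 were the highest.

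The smallest p values on the negative side belonged to Psmb10, Psme1 and Psmb9, all interferon-inducible. Psmb10 was at 8.36, 8.54, 8.61, 8.41 and 8.18 in the Mstn-null pools, against 8.63, 8.69, 8.70, 8.77 and 8.33 in the wild-type pools, a difference of -0.20 ± 0.0993 (SE). Pool 5 was the lowest of either genotype. Psme1 was at 10.10, 9.94, 9.91, 9.64 and 9.59 in the Mstn-null pools, against 10.14, 9.86, 9.96, 10.11 and 9.71 in the wild-type pools, a difference of -0.12 ± 0.113. Psmb9 was at 7.58, 7.59, 7.51, 7.82 and 7.58 in the Mstn-null pools, against 7.71, 7.69, 7.73, 7.77 and 7.48 in the wild-type pools, a difference of -0.06 ± 0.0733, and Mstn-null pool 4 was the highest of all 10. 

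For the other catalytic subunits the genotypes overlapped too. Psmb5 was at 11.01, 10.98, 10.87, 10.83 and 10.77 in the Mstn-null pools, against 10.97, 10.80, 10.87, 10.90 and 10.60 in the wild-type pools, a difference of 0.07 ± 0.0764 (SE). Mstn-null pool 1 was the highest and wild-type pool 5 the lowest. Psmb6 was at 11.14, 11.02, 10.94, 10.77 and 10.72 in the Mstn-null pools, against 10.85, 10.69, 11.01, 10.97 and 10.82 in the wild-type pools, a difference of 0.05 ± 0.0906. Mstn-null pool 1 was the highest and wild-type pool 2 the lowest. Psmb8 was at 7.18, 7.28, 7.34, 7.25 and 7.17 in the Mstn-null pools, against 7.38, 7.30, 7.28, 7.16 and 7.19 in the wild-type pools, a difference of -0.02 ± 0.0592, and wild-type pools held both the highest and the lowest value.

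Constitutive subunits varied together from pool to pool, most of all at 17.5 d.p.c. After the genotype means were removed, the mean Pearson correlation between 2 of the 31 subunits over the 10 pools was 0.117 at 13.5 d.p.c., 0.527 at 17.5 d.p.c. and 0.217 at d35, and 0.00888, 0.00543 and 0.0206 between any 2 genes at the same ages. Genes of 1 pool share their RNA and arrays, so these values describe the 10 pools. At 17.5 d.p.c. the mean deviation of the 47 genes from their 10-pool means was 0.12, 0.13, 0.05, -0.10 and -0.09 in Mstn-null pools 1 to 5 and 0.03, -0.12, 0.02, 0.02 and -0.07 in wild-type pools 1 to 5, so the genotypes overlapped. Hepatocyte markers deviated by -3.46 in Mstn-null pool 5, by -0.38 to 0.45 in the other Mstn-null pools and by -0.41 to 1.10 in wild-type pools. Skeletal muscle markers were positive in 8 of 8 cases (median 0.16), at -0.07 to 0.25 in Mstn-null and -0.29 to 0.19 in wild-type pools. B cell markers were negative in 5 of 5, at -0.12 to 0.02 in Mstn-null and -0.04 to 0.15 in wild-type pools, and macrophage markers in 6 of 8, at -0.13 to 0.02 in Mstn-null and -0.06 to 0.12 in wild-type pools, with 0 called in any of these lists. The 3′ minus 5′ signal of the Gapdh control on chip B was -0.0795 to -0.005 in Mstn-null and -0.0011 to 0.0353 in wild-type pools, without overlap. On chip A, which carries Psma5, Psmb7 and Psmd14, it was -0.0537 to 0.0069 in Mstn-null and -0.111 to 0.0283 in wild-type pools. The genotypes overlapped there, and for the actin signal on both chips. The part of these in the differences at 17.5 d.p.c. was not tested. Without wild-type pool 2, 21 of 31 constitutive subunits were positive, against 28 of 31 with it.

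**Figure D2:**
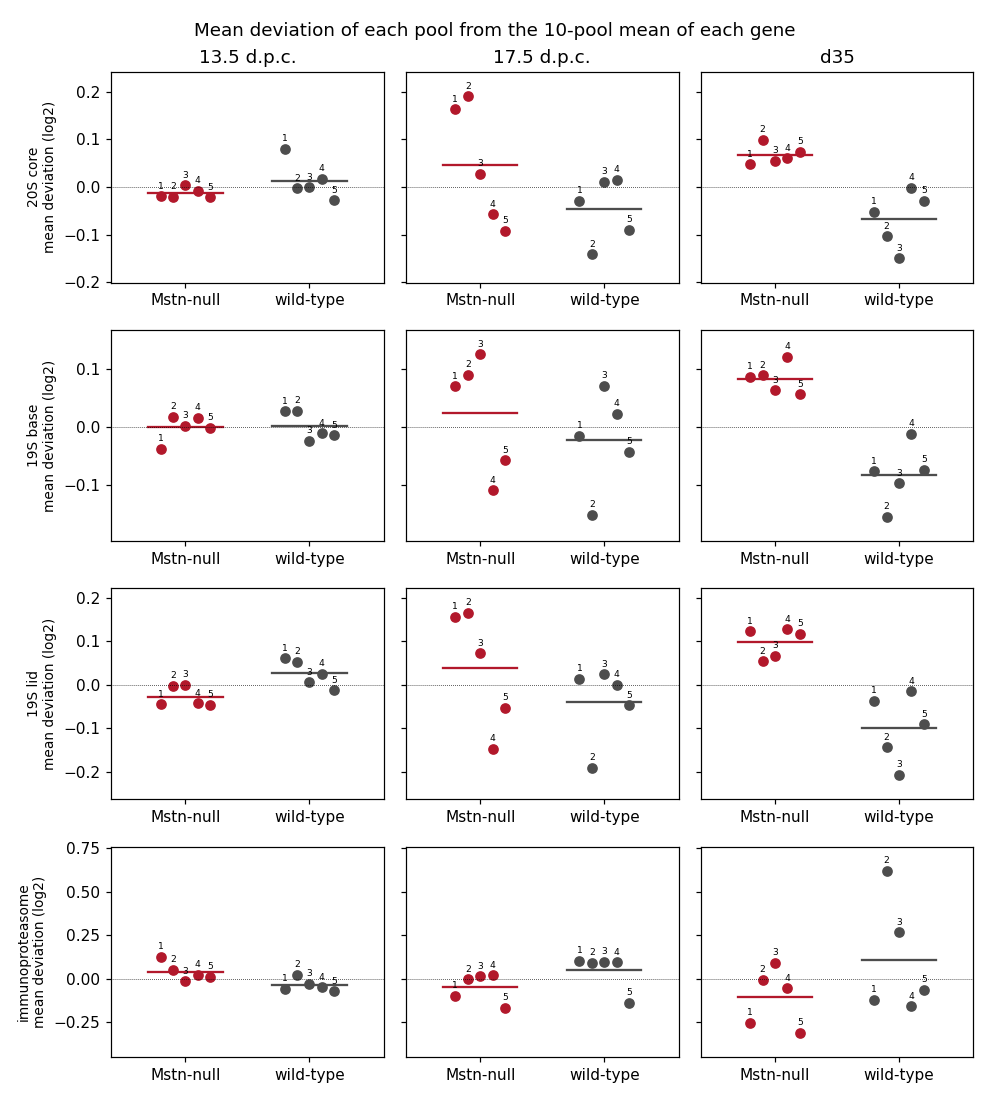
Mean deviation of each pool from the 10-pool mean of each gene, in log2 (y axis), by class of subunit (rows) at the 3 time points (columns); points are single pools and lines are means of 5 pools. At d35 every Mstn-null pool lies above every wild-type pool for core, base and lid, and at 17.5 d.p.c. the genotypes overlap.

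In pectoralis muscle at d35 the constitutive subunits of core, base and lid were positive in 30 of 31 cases, with a median of 0.17, and 10 of 31 were called higher. Among all probe sets 2.08% were called higher, and 2.7% among the brightest probe sets of all genes. The mean deviation of the 14 core genes was 0.05 to 0.10 in Mstn-null and -0.15 to -0.00 in wild-type pools. That of the 9 base genes was 0.06 to 0.12 in Mstn-null and -0.15 to -0.01 in wild-type pools, and that of the 8 lid genes 0.05 to 0.13 in Mstn-null and -0.21 to -0.01 in wild-type pools. Single genes differed by little, 1.13-fold to 1.33-fold for the 11 called higher.

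**Figure D3:**
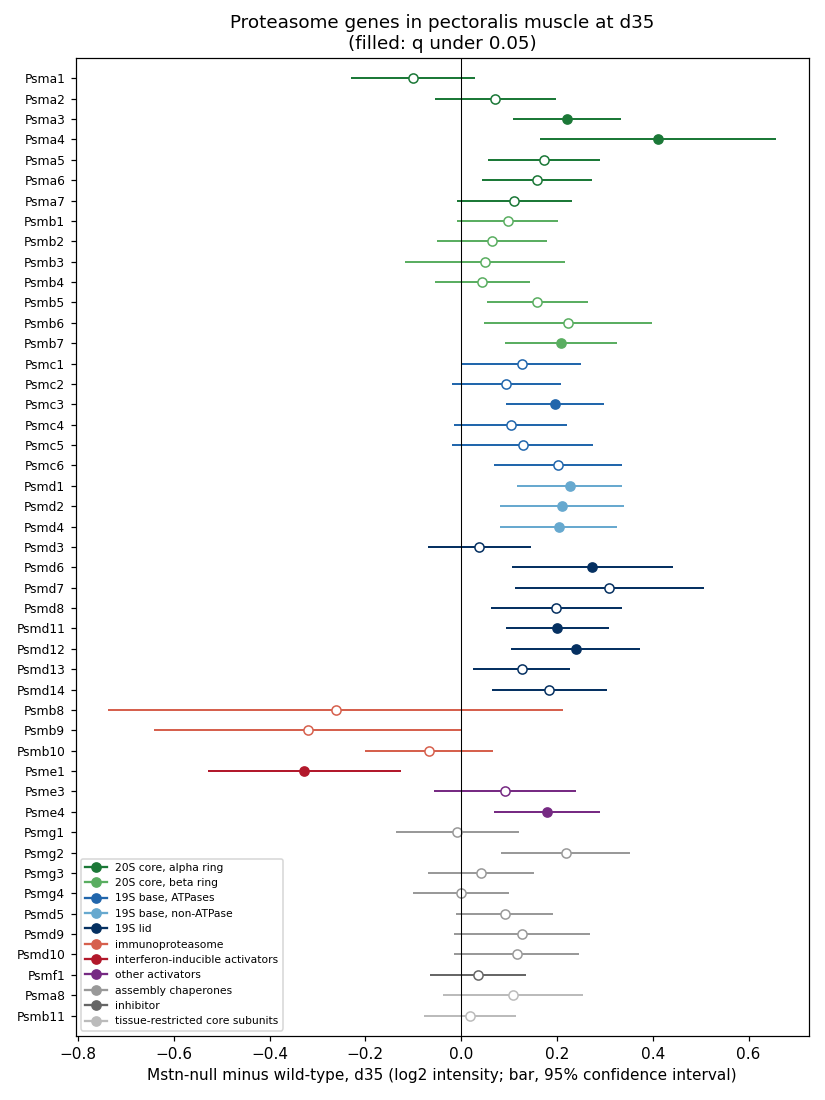
Difference of each of the 47 genes at d35, Mstn-null minus wild-type in log2 intensity (x axis), by class from top to bottom; points are limma estimates, bars 95% confidence intervals, and filled points are called. Of 31 constitutive subunits 30 lie to the right of 0, and Psme1 is the 1 gene called to the left.

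In the alpha ring 6 of 7 differences were positive and 2 genes, Psma3 and Psma4, were called. Psma3 was at 11.33, 11.34, 11.25, 11.30 and 11.29 in the Mstn-null pools, against 11.20, 11.01, 10.98, 11.12 and 11.10 in the wild-type pools. All Mstn-null pools were above all wild-type pools, a difference of 0.22 ± 0.051 (SE, n = 5, limma q = 0.023). Over 21 alternatives, which include the mean of its 2 probe sets, the difference of Psma3 ran from 0.08 to 0.25, and the call was lost in 7. The low end lay well under the 0.22 of its brightest probe set, and its dimmer probe set is not given by itself. Psma4 had the largest difference of the 47 genes, 0.41 ± 0.114 (SE, n = 5, limma q = 0.0464), or 1.33-fold. It was at 10.61, 10.73, 10.39, 10.22 and 10.81 in the Mstn-null pools, against 10.23, 10.43, 9.96, 10.08 and 10.02 in the wild-type pools. Mstn-null pool 4 lay below wild-type pools 1 and 2, and Mstn-null pool 3 below wild-type pool 2, so the genotypes overlapped. Psma5 did not overlap and was not called (0.17, q = 0.065). Psma6 was not called by its brightest probe set (0.16, q = 0.0824) but was by a dimmer one (0.22, q = 0.0454).

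Psma1, an alpha subunit, was the exception in direction. Its level was 8.77, 8.84, 8.81, 8.66 and 8.85 in the Mstn-null pools, against 8.93, 8.76, 8.80, 8.99 and 8.95 in the wild-type pools. The genotypes overlapped and the difference of -0.10 ± 0.0588 (SE, n = 5, limma q = 0.259) did not pass the test. The same probe set is also on chip B, where it gave -0.10, and the 3 dimmer probe sets gave -0.13, -0.01 and 0.01. Psmb5 and Psmc5, an ATPase, are also on both chips, with 0.16 and 0.13 on chip A and 0.12 and 0.09 on chip B.

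In the beta ring 7 of 7 differences were positive (median 0.10) and Psmb7 was called. It was at 12.33, 12.28, 12.32, 12.35 and 12.43 in the Mstn-null pools, against 12.20, 12.02, 12.06, 12.23 and 12.15 in the wild-type pools. The genotypes did not overlap and the difference was 0.21 ± 0.0536 (SE, n = 5, limma q = 0.0353). Psmb5 was at 11.02, 11.00, 11.02, 10.95 and 10.86 in the Mstn-null pools, against 10.85, 10.78, 10.75, 10.86 and 10.82 in the wild-type pools, a difference of 0.16 ± 0.0479 (SE, n = 5, limma q = 0.0619). Mstn-null pool 5 was level with the highest wild-type pools and the other Mstn-null pools were above them. Psmb6 was at 10.22, 10.40, 10.28, 10.50 and 10.43 in the Mstn-null pools, against 9.99, 10.10, 10.01, 10.38 and 10.25 in the wild-type pools, a difference of 0.22 ± 0.0804 (SE, n = 5, limma q = 0.104), and wild-type pools 4 and 5 lay inside the Mstn-null range. The structural subunits Psmb1, Psmb2, Psmb3 and Psmb4 differed by 0.04 to 0.10.

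In the base 9 of 9 differences were positive (median 0.20) and 4 genes were called. These were Psmc3, 1 of 6 ATPases, and all 3 non-ATPase subunits, the scaffolds Psmd1 and Psmd2 and the ubiquitin receptor Psmd4. Psmd1, with the smallest p of the 47 genes, was at 10.32, 10.37, 10.34, 10.49 and 10.37 in the Mstn-null pools, against 10.24, 10.08, 10.10, 10.20 and 10.14 in the wild-type pools, a difference of 0.23 ± 0.0502 (SE, n = 5, limma q = 0.0188). Psmc3 was at 10.61, 10.62, 10.64, 10.64 and 10.57 in the Mstn-null pools, against 10.46, 10.31, 10.42, 10.48 and 10.43 in the wild-type pools, a difference of 0.20 ± 0.0462 (SE, n = 5, limma q = 0.0251). In both, all Mstn-null pools were above all wild-type pools.

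Psmd2 was at 11.60, 11.54, 11.63, 11.55 and 11.53 in the Mstn-null pools, against 11.28, 11.29, 11.29, 11.56 and 11.38 in the wild-type pools, a difference of 0.21 ± 0.0588 (SE, n = 5, limma q = 0.0482). Wild-type pool 4 lay among the Mstn-null values and the other 4 wild-type pools below them. Over 21 alternatives, which include the mean of its 2 probe sets, the difference of Psmd2 ran from 0.06 to 0.26, and the call was lost in 13. Here too the low end lay well under the 0.21 of the brightest probe set, and the dimmer probe set is not given by itself. Psmd4 was at 10.77, 10.76, 10.95, 10.75 and 10.78 in the Mstn-null pools, against 10.48, 10.65, 10.55, 10.63 and 10.68 in the wild-type pools, a difference of 0.20 ± 0.0558 (SE, n = 5, limma q = 0.0444). The genotypes did not overlap, and Mstn-null pool 3 was the highest. A dimmer probe set of Psmd4 was also called (0.25, q = 0.0111). Of the other ATPases, Psmc6 did not overlap (0.20, q = 0.0616), and the remaining 4 differed by 0.09 to 0.13.

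In the lid 8 of 8 differences were positive (median 0.20) and 3 genes were called: Psmd11, Psmd12 and Psmd6, structural subunits of the lid. Psmd11 was at 11.20, 11.15, 11.24, 11.09 and 11.19 in the Mstn-null pools, against 10.97, 10.99, 10.90, 11.07 and 10.94 in the wild-type pools, a difference of 0.20 ± 0.0488 (SE, n = 5, limma q = 0.0284). Psmd12 was at 10.37, 10.35, 10.38, 10.52 and 10.58 in the Mstn-null pools, against 10.25, 10.09, 10.12, 10.25 and 10.30 in the wild-type pools, a difference of 0.24 ± 0.0614 (SE, n = 5, limma q = 0.0353). Neither overlapped between genotypes, and nor did Psmd6 (0.27, q = 0.0483). Psmd7 had the largest difference of the lid and was not called (0.31, q = 0.0561), and nor was Psmd14 (0.18, q = 0.0596). Psmd13 was called by a dimmer probe set (0.22, q = 0.0332) and not by its brightest (0.13, q = 0.106). Psmd3 differed least, by 0.04.

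Of the activators other than Psme1, Psme4, which encodes PA200, was called higher. It was at 10.96, 10.95, 10.96, 10.89 and 10.87 in the Mstn-null pools, against 10.74, 10.77, 10.61, 10.82 and 10.79 in the wild-type pools, a difference of 0.18 ± 0.0503 (SE, n = 5, limma q = 0.0483). The genotypes did not overlap, and a dimmer probe set was called too (0.26, q = 0.0148). Psme3, a nuclear activator, differed by 0.09 (q = 0.333). The assembly chaperones were positive in 5 of 7 cases with 0 called. Psmg2, which pairs with Psmg1 in building the alpha ring, came closest to the threshold (0.22, q = 0.0501), and Psmg1 differed by -0.01. The inhibitor Psmf1 differed by 0.04. Psma8, known from testis, and Psmb11, known from thymus, ranked at the percentiles 11.3 and 32.3 of their chips and differed by 0.11 and 0.02.

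The genotypes did not overlap for 12 of the 47 genes at d35, all higher in Mstn-null muscle, beside 2.77% of all probe sets. Of the 100 probe sets of the 47 genes, 22 were negative, 15 were called higher and 1 lower. Among all probe sets 2.08% were called higher and 2.5% lower. The calls depended on single pools. Without wild-type pool 3, which had the lowest mean level of the 47 genes (-0.10), 0 of 47 were called, and 1.73% of all probe sets were. The direction of the constitutive subunits depended less on them: with any 1 pool left out, 30 of 31 were positive with a median from 0.15 to 0.20. These subunits varied together from pool to pool (mean Pearson correlation 0.217 at d35), so the 31 signs are not independent of each other. Without wild-type pools 2 and 3 together, the median was 0.13, 29 of 31 were positive and 0 of 47 genes were called, where 1.42% of all probe sets were.

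Sequences upstream of the start site are shown for 6 of the genes called higher at d35, those that hold CCGGAAG, letters bound by ETS family factors, within 250 bases before the start and 50 after it. Promoters were given for 9 genes called higher and 30 other proteasome genes, and 6 of the 9 and 8 of the 30 held these letters on either strand, as did 9.93% of 27025 genes. It was 1 of 14 motifs searched on both strands with the results known, so the counts describe these windows. The windows of 60 bases are from RefSeq (build GRCm38.p6), read 5′ to 3′ on the strand of the gene, and capitals mark CCGGAAG or its reverse complement. They lie at chr16:20651592-20651651 (plus strand), chr3:95042700-95042759 (minus), chr14:14120946-14121005 (minus), chr11:80428555-80428614 (plus), chr11:107479468-107479527 (plus) and chr11:30771715-30771774 (plus).
Psmd2: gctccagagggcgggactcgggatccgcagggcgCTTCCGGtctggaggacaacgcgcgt
Psmd4: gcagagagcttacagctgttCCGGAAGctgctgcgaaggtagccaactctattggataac
Psmd6: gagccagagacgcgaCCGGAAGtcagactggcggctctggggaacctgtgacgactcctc
Psmd11: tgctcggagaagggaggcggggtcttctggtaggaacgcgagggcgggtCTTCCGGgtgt
Psmd12: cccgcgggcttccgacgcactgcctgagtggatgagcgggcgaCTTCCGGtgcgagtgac
Psme4: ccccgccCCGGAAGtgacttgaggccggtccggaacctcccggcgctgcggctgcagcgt

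In Psmd4, Psmd6 and Psme4 the letters CCGGAAG stood on the strand of the gene, and in Psmd2, Psmd11 and Psmd12 on the other. TGACNNNGC, the core of the antioxidant response element that Nfe2l1 and Nfe2l2 bind, was in 6 of 39 promoters of proteasome genes (Psmb5, Psmb6, Psmc6, Psmd9, Psmd12 and Psme4), or 15.4% beside 14% of all genes, and its narrower forms TGACNNAGC and TGACTCAGC, which it includes, were in 3 and 0. GGGCGG was in 56.4% beside 38.2% of all genes, and CCAAT in 35.9% beside 41.1%. The interferon response motif was in 5 of 39 (Psmb3, Psmd4, Psmd9, Psme1 and Psmg4), or 12.8% beside 3.99%. TTCNNNGAA was in 7.69% beside 9.55%, CACGTG in 10.3% beside 8.09%, TTTCCCGC in 5.13% beside 1.24% and the ZNF143 motif in 5.13% beside 1.1%. TGACGTCA, CTAATTGG and GGAACTT were in 0 of 39, beside 2.03%, 0.74% and 4.91%.

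The immunoproteasome genes were negative in 3 of 3 cases at d35, and 0 were called. Psmb8 was at 7.20, 7.69, 7.81, 7.66 and 7.32 in the Mstn-null pools, against 7.38, 8.73, 7.94, 7.42 and 7.52 in the wild-type pools, a difference of -0.26 ± 0.219 (SE, n = 5, limma q = 0.369). Psmb9 was at 7.29, 7.46, 7.58, 7.34 and 7.10 in the Mstn-null pools, against 7.48, 8.24, 7.85, 7.32 and 7.48 in the wild-type pools, a difference of -0.32 ± 0.148 (SE, n = 5, limma q = 0.179). In both, wild-type pool 2 was far above the rest and wild-type pool 3 came next. Psmb10 was at 8.24, 8.32, 8.38, 8.33 and 8.14 in the Mstn-null pools, against 8.27, 8.39, 8.51, 8.28 and 8.30 in the wild-type pools, a difference of -0.07 ± 0.0611 (SE, n = 5, limma q = 0.394), with wild-type pools 3 and 2 the highest.

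**Figure D4:**
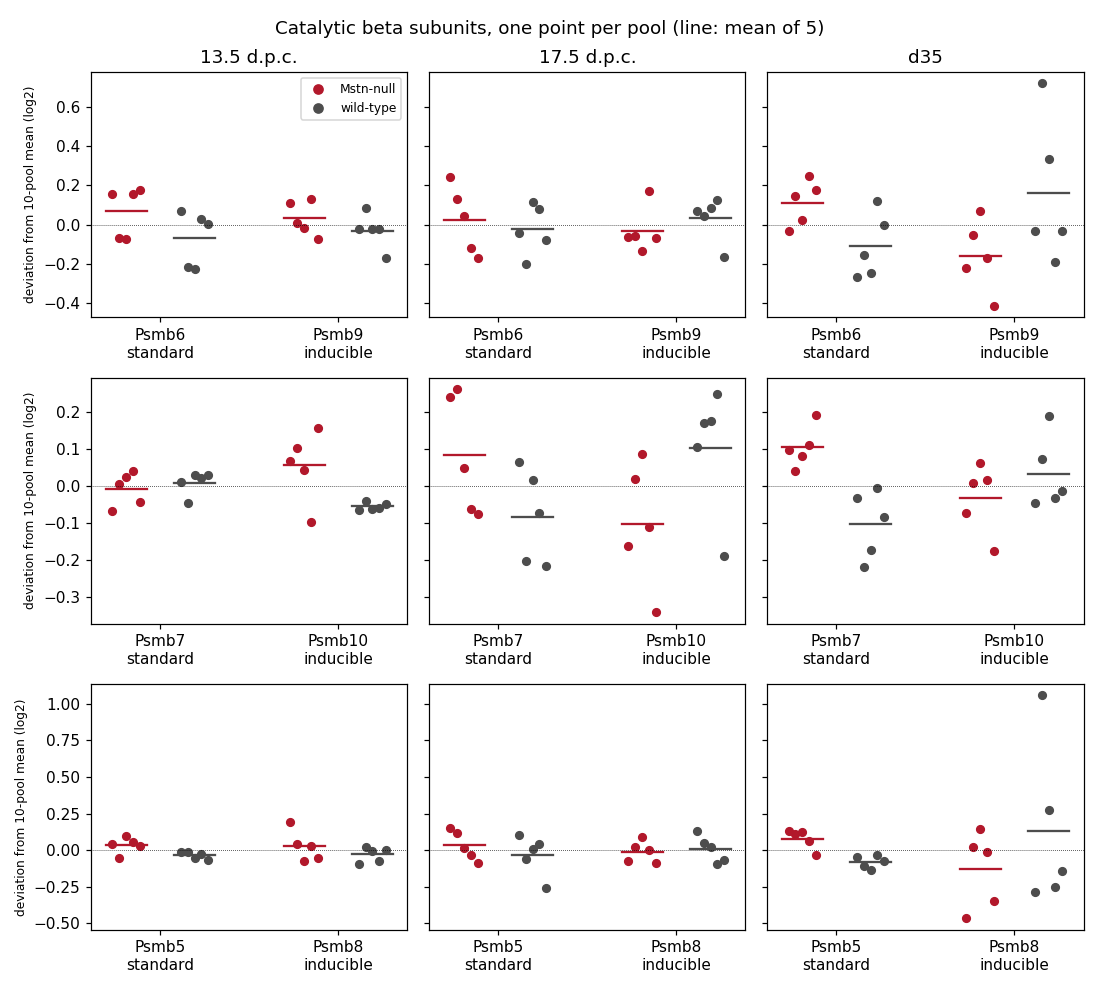
Deviation of each pool from the 10-pool mean of the gene, in log2 (y axis), for the standard catalytic subunits and their inducible counterparts (rows) at the 3 time points (columns); points are single pools and lines are means of 5 pools. At d35 Psmb7 does not overlap between genotypes, and wild-type pool 2 is the highest point of Psmb8 and Psmb9.

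Psme1 was called lower in Mstn-null muscle. It was at 9.04, 9.50, 9.60, 9.51 and 9.31 in the Mstn-null pools, against 9.69, 9.84, 9.75, 9.59 and 9.72 in the wild-type pools. Mstn-null pool 1 was the lowest, and Mstn-null pool 3 overlapped wild-type pool 4. The difference was -0.33 ± 0.0922 (SE, n = 5, limma q = 0.0493), or 0.797-fold, where 2.5% of all probe sets were called lower. Over 21 alternatives it ran from -0.38 to -0.24, and the call was lost in 10.

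In wild-type pools 2 and 3 the mean level of the immunoproteasome genes and of each list of immune cell markers was highest. B cell markers deviated from their 10-pool means by -0.44 to 0.11 in Mstn-null pools, against 1.37 in wild-type pool 2, 0.46 in wild-type pool 3 and -0.40 to -0.29 in the other wild-type pools. T cell markers were at -0.30 to 0.08 in Mstn-null pools, 0.88 in wild-type pool 2 and 0.38 in wild-type pool 3, and macrophage markers at -0.37 to -0.01, 0.64 and 0.14. All 5 B cell, 6 T cell and 8 macrophage markers measured had a negative difference, and 0 were called. Without wild-type pools 2 and 3, a choice made after seeing the data, Psmb8 differed by 0.10, Psmb9 by -0.07, Psmb10 by -0.00 and Psme1 by -0.28 (limma q = 0.252). Antigen presentation and interferon genes were negative in 11 of 12 cases (median -0.26, 0 called), with the smallest p for Tapbp, which loads peptides on class I molecules (-0.38, q = 0.0602). The part of immune cells in the differences of Psmb8, Psmb9, Psmb10 and Psme1 was not tested.

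**Figure D5:**
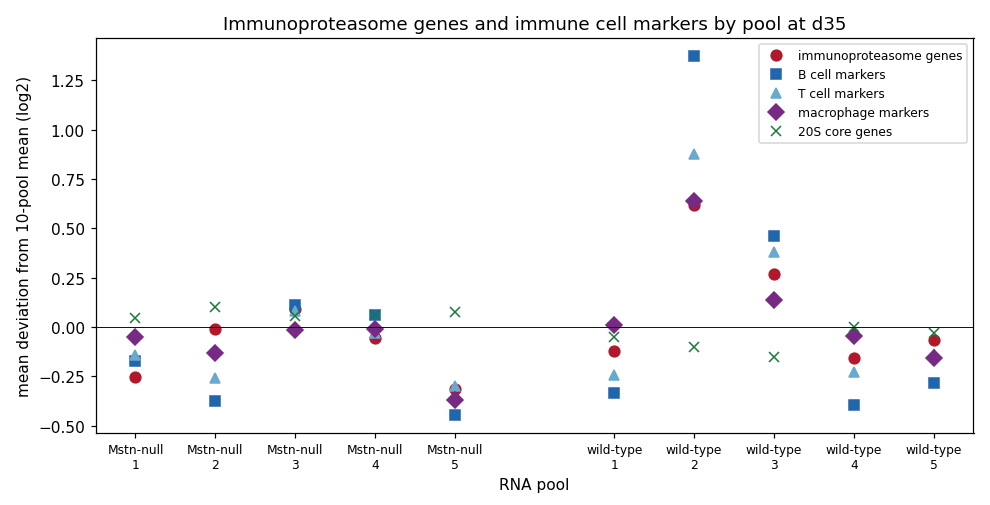
Mean deviation from the 10-pool mean at d35, in log2 (y axis), of 3 immunoproteasome genes, 5 B cell, 6 T cell and 8 macrophage markers and 14 core genes in each pool (x axis). In wild-type pools 2 and 3 the immunoproteasome genes and the marker lists lie above 0 and the core genes are at their lowest, -0.10 and -0.15.

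Markers of other cell types also differed at d35, where 2.5% of all probe sets were called lower and 44.9% of all genes were negative. White adipocyte markers were negative in 5 of 5 cases (median -0.48) with Cidec and Fabp4 called lower, at a mean deviation of -0.71 to 0.21 in Mstn-null and 0.14 to 0.42 in wild-type pools. Endothelial markers were negative in 5 of 5 (median -0.21) with Kdr and Tie1 called lower, at -0.24 to -0.04 in Mstn-null and 0.01 to 0.23 in wild-type pools. Skeletal muscle markers were positive in 7 of 8 (median 0.12) with Actn2 called lower, at -0.07 to 0.14 in Mstn-null and -0.09 to 0.05 in wild-type pools. The 3′ minus 5′ signal of the actin controls was 0.0599 to 0.211 in Mstn-null and 0.134 to 0.579 in wild-type pools on chip A, with overlap, and 0.155 to 0.278 in Mstn-null and 0.208 to 0.584 in wild-type pools on chip B. The part of these in the differences of the proteasome genes was not tested.

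Among neighbours of the proteasome in the pathway 1 gene was called at d35, where 4.58% of all probe sets were. Among proteins that bind or assemble it 8 of 12 measured were positive and 0 called, with the smallest p for the proteasome adaptor Ecpas (0.24, q = 0.0663), and the assembly factor Pomp was at 0.17. The segregase Vcp, or p97, and its cofactors were positive in 6 of 6 and 0 called, with Vcp itself at 0.17. Of factors that regulate proteasome genes 3 of 6 were positive and 0 called, with Nfe2l1 at -0.04 and Nfe2l2 at -0.18. Of muscle ubiquitin ligases 6 of 10 were positive and 1, the sarcomere protein gene Trim54, was called higher (0.33, q = 0.0299). The atrophy ligases Fbxo32 (-0.61, q = 0.0984) and Trim63 (-0.13, q = 0.478) were not called. Of ubiquitin and its activating enzymes Uba6 alone was measured, at 0.04.

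At the embryonic ages these lists had 0 calls, where 0.54% of all probe sets were called at 13.5 d.p.c. and 0% at 17.5 d.p.c. At 13.5 d.p.c. proteasome partners were negative in 10 of 12 cases and p97 with its cofactors in 6 of 6, with the smallest p for the shuttle factor Rad23b (-0.14) and for Vcp (-0.15). At 17.5 d.p.c. they were negative in 4 of 12 and 2 of 6.

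Whether the genotype difference changed with age was tested in a fit of all 30 pools. Between d35 and 13.5 d.p.c. it was called for 4 of 47 genes, beside 1.17% of all probe sets, namely Psma4 (0.78 ± 0.15, q = 0.00546), Psmd7 (0.54 ± 0.13, q = 0.0308), Psmd1 (0.29 ± 0.0742, q = 0.0417) and Psmd11 (0.25 ± 0.063, q = 0.0425), each given as the d35 minus the 13.5 d.p.c. difference with its SE from limma. In all 4 the difference was negative at 13.5 d.p.c. and positive at d35. Between d35 and 17.5 d.p.c. 0 were called by limma (lowest q = 0.073, for Psmd11), where 0.715% of all probe sets were, and 6 of 47 had an unadjusted p under 0.05, beside 11.8% of all probe sets. Between 17.5 and 13.5 d.p.c. 0 were called by limma (lowest q = 0.527), where 0% of all probe sets were, and 8 of 47 had an unadjusted p under 0.05, beside 6.26% of all probe sets. Age and tissue cannot be told apart in these contrasts.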

How the data were processed

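RNA of 30 pools was measured on chips A and B of the Affymetrix MOE430 set. Array signals were normalized by the authors with RMA, and the deposited values are log2 intensities from 2.78 to 15.27. In the deposited values array medians lie close together within an age and apart between ages, so levels were not set against each other across ages. The version of their R package affy is not given in the sources used here. After removal of 64 control probe sets per chip, and with 100 probe sets on both chips taken from chip A, 45037 remained, of which 34945 name 1 gene, 932 several and 9160 none. Genotypes were compared within each time point by limma 3.58.1 (R 4.3.3), and the interaction in a fit of all pools. P-values were turned into Storey q-values over all probe sets (lambda 0.05 to 0.95 by 0.05), with a threshold of 0.05. The calculation was also run on simulated data, and the outcome is not given here. Precision is limited by 5 pools per group. Members and gene lists were chosen with earlier results of these data known. Pool values are given for called genes (at most 10, by smallest p), or for the 3 smallest p in each direction where none was called, and for catalytic subunits and Psme1. Psma1 at d35 and Psma4 at 13.5 d.p.c. were added after their values were seen, as were Pomp, Vcp, Nfe2l1, Fbxo32 and Trim63 at d35. Promoters were matched by symbol for 39 of 47 genes. Alternatives covered the adjustment, moderation, normalization, dim probe sets, chips, choice of probe set, a replicate block and pools left out. Figures were drawn with Python 3.11.15 and matplotlib 3.10.9.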

Additional observations from a re-analysis of the deposited data

Results flagged for a closer look

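In 5 of 66 sets of 5 pools, 1 pool lay apart by more than Dixon's 95% limit, which chance alone exceeds in about 1 of 20 sets. At 13.5 d.p.c. Psmd7 was at 9.20 in wild-type pool 5, against 9.37 to 9.41 in the other wild-type pools (gap over range 0.819), and Psmb7 was at 12.40 in wild-type pool 2, against 12.46 to 12.47 (0.767). At 17.5 d.p.c. Psmb9 was at 7.82 in Mstn-null pool 4 while the remaining Mstn-null pools spanned 7.51 to 7.59 (0.745), and at 7.48 in wild-type pool 5, against 7.69 to 7.77 in the other wild-type pools (0.727). At d35 Psmd4 was at 10.95 in Mstn-null pool 3, while the remaining Mstn-null pools spanned 10.75 to 10.78 (0.827).

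The genotype difference changed between 13.5 d.p.c. and d35 by the interaction test in limma for Psma4 (0.7757), Psmd7 (0.535), Psmd1 (0.2907) and Psmd11 (0.2457).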

How the results depend on the processing

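At d35 the 12 calls became 4 with Benjamini-Hochberg adjustment, by which 1324 of 45037 probe sets were called, against 2062 by q. They became 0 without wild-type pools 2 and 3 together, an alternative chosen after seeing the data, where 1.42% of all probe sets were called. They were 9 to 18 under the other alternatives that kept all pools, for which the share of all probe sets is not given. With 1 pool left out they were 0 to 16: 2, 5, 3, 4 and 5 without Mstn-null pools 1 to 5, and 5, 3, 0, 16 and 6 without wild-type pools 1 to 5, where 1.73% to 4.45% of all probe sets were called, against 4.58% with all pools. The median at d35 was 0.0914 with the mean of all probe sets of a gene, and 0.1086 to 0.1358 with 1 pool left out. At 13.5 d.p.c. 0 genes were called with Benjamini-Hochberg adjustment, by which 159 of 45037 probe sets were called, against 243 by q. None was called either with a single fit of all pools, further quantile normalization, the mean of all probe sets or 1 probe set per gene. With 1 pool left out 0 to 2 were called (2 without wild-type pool 5, where 1.06% of all probe sets were called, and 0 without any other, where 0.00222% to 0.404% were). The median there was 0.0124 with further normalization. At 17.5 d.p.c. 0 were called under every alternative run. With the replicate block 9 genes were called at d35 and 0 at either embryonic age. The labels do not say whether pools of the same number share an origin. Deviations of same-numbered pools correlated by -0.1 to 0.0757 at 13.5 d.p.c., -0.199 to 0.485 at 17.5 d.p.c. and -0.172 to 0.139 at d35. The correlation was over 0.1 in 3 of 5 pairs at 17.5 d.p.c., 1 at d35 and 0 at 13.5 d.p.c. The same-numbered pool was the best match in 3 of 5 pairs at 17.5 d.p.c. and in 0 at the other ages. The 4 interactions between d35 and 13.5 d.p.c. became 2 with Benjamini-Hochberg adjustment. They were 1 to 4 with 1 pool left out, and the share of all probe sets is not given for either. They were 1 or 2 whichever pool of 13.5 d.p.c. was left out, and also without Mstn-null pool 1, 3 or 5 or wild-type pool 2, 3 or 5 of d35. Between d35 and 17.5 d.p.c. 1 was called with further normalization, and 0 to 2 with 1 pool left out (2 without wild-type pool 2 of 17.5 d.p.c., 1 without wild-type pool 4 of d35). With 1 pool left out, 10 to 14 of the 31 constitutive subunits were positive at 13.5 d.p.c., 21 to 30 at 17.5 d.p.c. and 30 at d35. Among genes given by pool, differences that were not called changed sign for Psmb8 at 13.5 d.p.c. (-0.0057 with the mean of all probe sets), Psmb6 at 17.5 d.p.c. (-0.0053 without Mstn-null pool 1, up to 0.0985), Psmb8 at 17.5 d.p.c. (-0.0459 to 0.0104 with 1 pool left out, 0.0104 without wild-type pool 1, and 0.0295 without Mstn-null pool 5 and wild-type pool 1) and Psmb8 at d35 (0.095 without wild-type pools 2 and 3). The cause was not tested.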
